A study of Mus musculus with 7 samples.

Results

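Lysosome and autophagy genes were examined in hematopoietic stem cells (HSCs), the bone marrow cells from which all blood lineages arise. The set was a list of 44 gene symbols taken for their function, with earlier results of these data known. All 44 were found as rows of the deposited table of 23284 genes. The HSCs came from bone marrow on the C57BL/6 background and carry Hdc-GFP, a green fluorescent protein reporter of Hdc, the gene of the histamine-forming enzyme histidine decarboxylase. Sorting by GFP brightness gave 3 libraries of bright cells (Hdc-GFPhi) and 4 of dim cells (Hdc-GFPlo), each made from the RNA of 500 cells. Both groups share the reporter and no treatment is named. The labels state neither age nor the sort gate, nor whether libraries came from separate animals. P-values therefore measure the spread between these libraries, which may be technical. Hdc-GFPlo replicate 4 has its sorted fraction labelled as GFP negative.

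Lysosomes are acid organelles in which hydrolases break down proteins, glycans and lipids. Macroautophagy delivers cytoplasm to them: a kinase complex and lipid-binding proteins start a membrane cup, ubiquitin-like conjugation attaches Atg8 proteins to it, and the closed vesicle fuses with a lysosome. In the mouse, loss of Atg7 or Atg12 in blood cells is known to impair the maintenance of HSCs. The transcription factors TFEB and TFE3 act on many lysosome and autophagy genes through a palindromic DNA element.

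Library totals ranged from 19606124 to 23688672 counts, and a count of 0 allowed up to 0.127 to 0.153 CPM (counts normalized for library size). Hdc itself had 37.6, 18.7 and 33.9 CPM in Hdc-GFPhi and 16.2, 16.7, 21.6 and 4.44 CPM in Hdc-GFPlo, so the groups overlapped (log2 fold change 1.03, SE 0.45, edgeR adjusted p = 0.397). All 10 HSC markers listed, Kit and Procr among them, had counts in every library and 8 had lower fitted values in Hdc-GFPhi, with summed levels of 3293 to 3668 CPM in Hdc-GFPhi and 3810.00 to 4092 CPM in Hdc-GFPlo. Neutrophil markers were present too, 10 of 10 with higher fitted values, at summed levels of 5924 to 8249 CPM against 2794 to 6832 CPM. Myeloid progenitor granule markers, 5 of 5 with higher fitted values, summed to 416 to 2639.6 CPM against 137 to 1444 CPM. Megakaryocyte and platelet markers, 7 of 7 tested with higher fitted values, summed to 829 to 1082 CPM against 525 to 865 CPM. Mast cell, basophil and eosinophil markers reached 617 CPM in Hdc-GFPhi replicate 1, most of it Prg2, and at most 31.96 CPM elsewhere. Lymphocyte markers, with Cd3e at 0 in every library, summed to 159.5 to 209 CPM against 133 to 163 CPM, and erythroid markers, with Hba-a1 and Hbb-b1 listed at 0, to 77.4 to 182 CPM against 94.3 to 142 CPM. Which cells carry these markers, and their part in the values below, was not tested. In bulk samples of this kind, fewer cells of a type and less RNA per cell cannot be told apart.

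Summed over all 44 genes, the levels of the fractions overlapped. Their summed level was 6893, 6275 and 6950.5 CPM in the Hdc-GFPhi libraries and 6744, 6747, 6667 and 6815 CPM in the Hdc-GFPlo libraries, so the Hdc-GFPhi libraries held both the lowest and the highest of these sums. Values are CPM scaled by the TMM method, which corrects library totals for composition, and are listed in the order of the replicate numbers. All 44 genes passed the filter on low counts. Of these, 24 had higher and 20 lower fitted values in Hdc-GFPhi (30 and 14 with library totals as the scaling), with a median log2 fold change of 0.040 beside 0.011 over all 12917 genes tested.

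In edgeR's quasi-likelihood test none of the 44 passed an adjusted p of 0.05, and 0 of 12917 genes did (0%). At an unadjusted p under 0.05, 2 members were higher in Hdc-GFPhi, Neu1 and Wipi2, which is 4.55% of the members against 4.92% of all tested genes. Lower at the same threshold were 4 members, Lamp2, Ids, Ulk2 and Atg12, which is 9.09% against 7.31% of all tested genes. Hdc-GFPhi libraries lay entirely above the Hdc-GFPlo libraries for 3 members (6.82%, against 6.02% of all genes) and entirely below for 3 (6.82%, against 5.87%). DESeq2, run as a second tool, called 2 members lower, Ids and Lamp2 (4.55%, against 2.57% of the genes it tested), and 0 higher (0.686% of its genes). With all 7 libraries the edgeR shares lay near those of all genes, and a share near the background is not a result about the members. Higher members numbered 4 without Hdc-GFPhi replicate 2 (9.09%, against 3.76% of all genes tested in that fit). There was 1 such member (2.27%) without Hdc-GFPhi replicate 3, against 5.6% of all genes, and without Hdc-GFPlo replicate 2, against 3.87%. Lower members numbered 2 (4.55%) without Hdc-GFPhi replicate 1, against 4.75% of all genes, and without Hdc-GFPlo replicate 3, against 5.64%. Without Hdc-GFPhi replicate 3 they numbered 6 (13.6%, against 8.51%). Ids, Lamp2 and Neu1 stayed under an unadjusted p of 0.05 in all 7 fits that left out 1 library, Ulk2 in 3, and Wipi2 and Atg12 in 2 each.

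**Figure D1:**
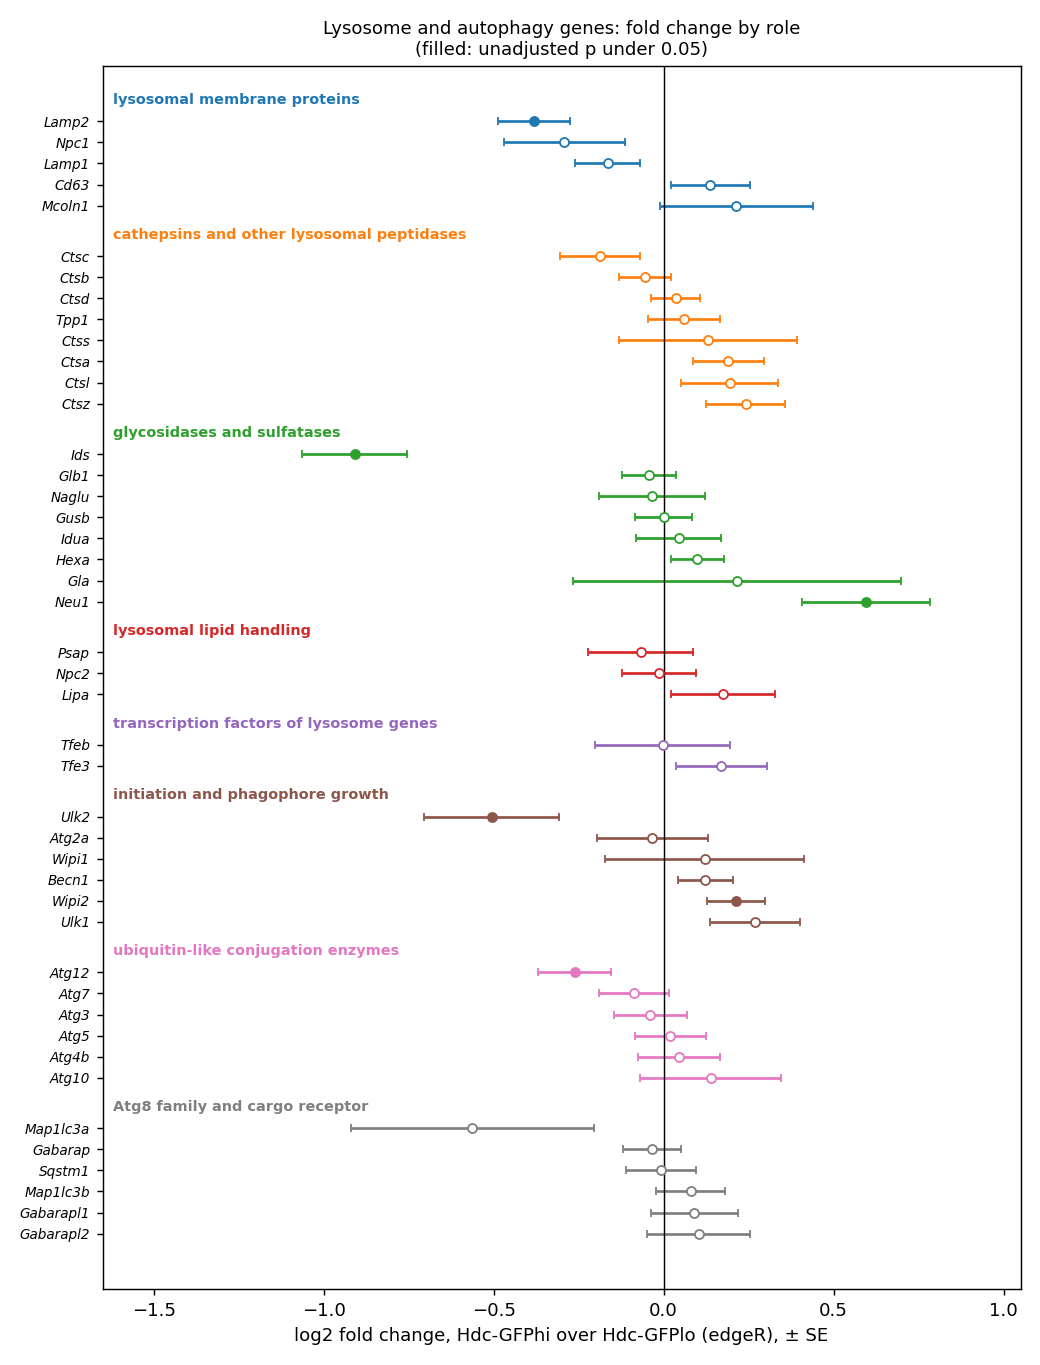
Log2 fold change of Hdc-GFPhi over Hdc-GFPlo (x axis, edgeR estimate ± SE from 3 and 4 libraries) for each of the 44 genes (y axis), grouped by role, with filled points at an unadjusted p under 0.05. Most genes lie close to 0, and Ids at -0.91 and Neu1 at 0.60 lie farthest out on either side.

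Sulfatases and glycosidases of the lysosome held the members farthest from 0 in both directions, Ids and Neu1. Ids encodes iduronate 2-sulfatase, which removes sulfate from the glycosaminoglycans heparan and dermatan sulfate and is lost in Hunter syndrome. It was at 17.9, 18.2 and 21.4 CPM in Hdc-GFPhi and 31.8, 37.8, 39.1 and 35.4 CPM in Hdc-GFPlo. Every Hdc-GFPhi library lay below every Hdc-GFPlo library, with a gap wider than the range within either group. Means were 19.2 ± 1.95 CPM (SD, n = 3) and 36.03 ± 3.23 CPM (SD, n = 4), a fitted ratio of 0.533. The log2 fold change was -0.91 with an SE of 0.16 (edgeR adjusted p = 0.224, unadjusted p = 1.91e-04). DESeq2 called Ids with an adjusted p of 3.46e-05, and it did so with any single library left out, at adjusted p-values of at most 0.00805.

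Neu1, the sialidase that removes sialic acid from glycans, had 39.3, 33.7 and 29.2 CPM in Hdc-GFPhi and 28.2, 22.5, 20.6 and 18.8 CPM in Hdc-GFPlo. The groups did not overlap, but the lowest Hdc-GFPhi value and the highest Hdc-GFPlo value lay close together. The log2 fold change was 0.60 (SE 0.19, edgeR adjusted p = 0.299, DESeq2 adjusted p = 0.098). In the lysosome the Neu1 protein needs protective protein cathepsin A, encoded by Ctsa, and sits in a complex with the beta-galactosidase encoded by Glb1. Ctsa had 211, 182 and 194 CPM against 179.9, 156, 194 and 157 CPM, with the groups overlapping through Hdc-GFPlo replicate 3 (log2 fold change 0.19, SE 0.10). Glb1 ranged from 159.6 to 178 CPM over the 7 libraries with no order between the groups (log2 fold change -0.043, SE 0.080).

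Differences in the other enzymes of glycan breakdown lay within the spread of the libraries. Hexa, the alpha subunit of beta-hexosaminidase, had the most reads of this role, at 269, 250.2 and 268 CPM in Hdc-GFPhi and 246, 261, 232 and 239.9 CPM in Hdc-GFPlo. Its groups overlapped and the log2 fold change was 0.10 (SE 0.079, edgeR adjusted p = 0.647). Gusb, the beta-glucuronidase gene often used as a reference, had a log2 fold change of -0.00017 (SE 0.085) over a range of 201 to 228 CPM. Idua and Naglu, enzymes that also act on heparan sulfate, were at 0.044 (SE 0.12) and -0.034 (SE 0.16) on the log2 scale. The contrast of Ids with these genes was not tested. Gla, the alpha-galactosidase A gene, was low and uneven, at 2.995 to 13.8 CPM, lowest in replicate 4 of Hdc-GFPlo, with a log2 fold change of 0.22, SE 0.48.

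Among proteins of the lysosomal membrane, the summed level was below that of Hdc-GFPlo in every Hdc-GFPhi library. The sums were 854, 873 and 929 CPM in Hdc-GFPhi and 953, 1103, 948 and 1013 CPM in Hdc-GFPlo. Lamp2 and Lamp1, which encode the main glycoproteins that line the inner face of this membrane, carried most of these reads. Lamp2 was the only one of the 5 genes with separate groups, which 5.87% of all genes had in this direction. Of the 5, 3 had lower and 2 higher fitted values. Lamp2, one splice form of which is the receptor of chaperone-mediated autophagy, was at 238, 298 and 282 CPM in Hdc-GFPhi and 336, 400.4, 329.9 and 354 CPM in Hdc-GFPlo. The groups were separate, with Hdc-GFPhi replicate 1 lowest and Hdc-GFPlo replicate 2 highest, and counts per gene do not tell the splice forms apart. Its log2 fold change was -0.38 (SE 0.11, edgeR adjusted p = 0.252, unadjusted p = 0.00513), with means of 273 ± 31.1 CPM and 355 ± 31.9 CPM (SD, n = 3 and 4). DESeq2 called it with all libraries (adjusted p = 0.0255). That call was lost without Hdc-GFPhi replicate 1 (adjusted p = 0.174) and without Hdc-GFPlo replicates 1, 2, 3 or 4 (adjusted p = 0.0552, 0.144, 0.0630 and 0.0557).

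Lamp1 had 378, 379 and 456 CPM in Hdc-GFPhi and 427, 497, 451 and 438 CPM in Hdc-GFPlo. Hdc-GFPhi replicate 3 lay within the Hdc-GFPlo range and the other Hdc-GFPhi libraries below it, and the difference did not pass (log2 fold change -0.16, SE 0.095, edgeR adjusted p = 0.512). Npc1, the membrane protein that moves cholesterol out of the lysosome, had 24.5, 29.2 and 37.3 CPM against 37.8, 39.2, 31.4 and 40.00 CPM (log2 fold change -0.29, SE 0.18). Here too Hdc-GFPhi replicate 3 overlapped the Hdc-GFPlo libraries. The tetraspanin gene Cd63 ranged from 97.6 to 134 CPM (log2 fold change 0.14, SE 0.12) and the calcium channel gene Mcoln1 from 37.5 to 78.8 CPM (log2 fold change 0.21, SE 0.22), with the highest value of each in Hdc-GFPhi replicate 1.

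**Figure D2:**
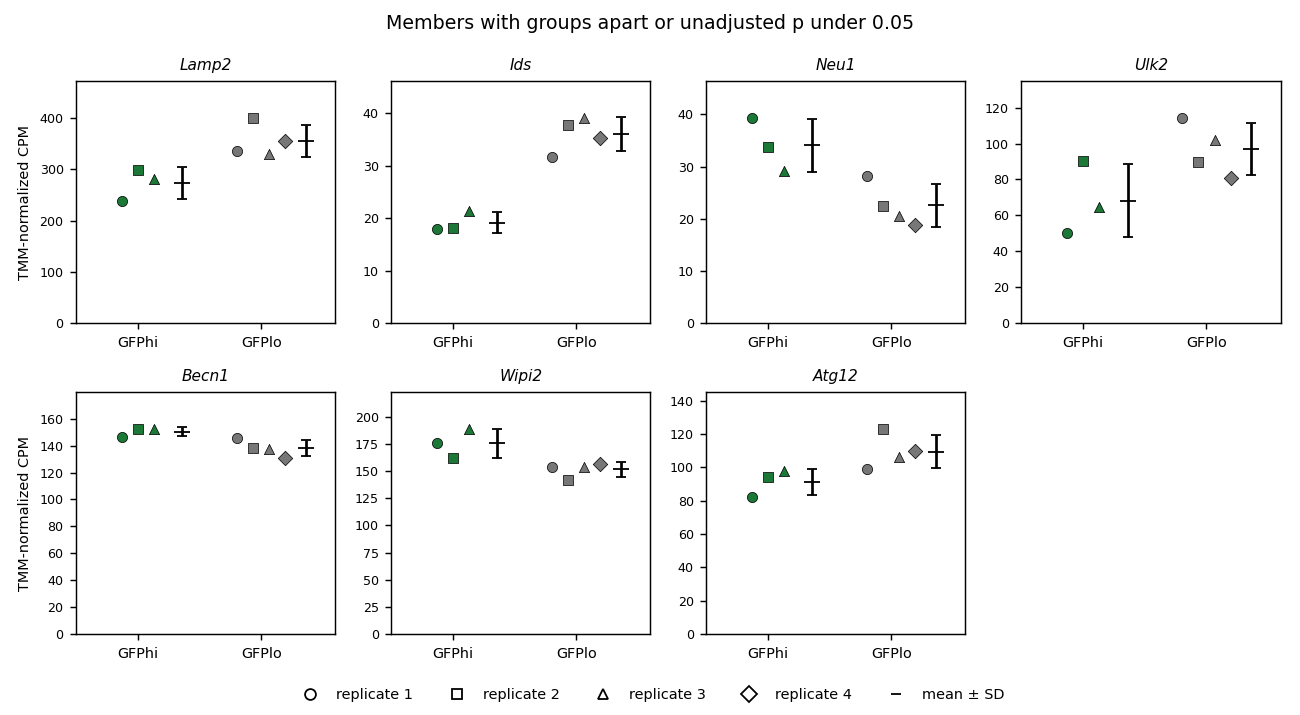
TMM-normalized CPM (y axis, from 0) in each library of Hdc-GFPhi (green) and Hdc-GFPlo (grey) for the 7 members whose groups did not overlap or whose unadjusted p was under 0.05; bars show mean ± SD. Ids shows the clearest gap, with 21.4 CPM as the highest Hdc-GFPhi value and 31.8 CPM as the lowest Hdc-GFPlo value, while Ulk2 overlaps.

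Cathepsins and other lysosomal peptidases overlapped between the fractions in every case. Of 8 genes, 6 had higher and 2 lower fitted values, with log2 fold changes between -0.19 and 0.24. At an unadjusted p under 0.05 there were 0, against 4.92% of all genes higher and 7.31% lower. Groups were separate in 6.02% (above) and 5.87% (below) of all genes. At such shares, 0 of 8 is not a result about this role. Ctsd, the aspartic protease cathepsin D and the gene of this role with the most reads, was at 722, 673 and 751 CPM in Hdc-GFPhi and 714, 649, 712 and 717 CPM in Hdc-GFPlo. The log2 fold change of Ctsd was 0.035 with an SE of 0.072. Ctsz, a carboxypeptidase, had 222, 183 and 220.00 CPM against 194, 147, 184 and 179.6 CPM, and only Hdc-GFPhi replicate 2 fell inside the Hdc-GFPlo range (log2 fold change 0.24, SE 0.12, edgeR adjusted p = 0.434). Ctsc, the dipeptidyl peptidase that activates granule serine proteases, had 121, 143 and 157 CPM against 166, 175, 159 and 139 CPM. Its log2 fold change was -0.19 (SE 0.12), with Hdc-GFPhi replicate 1 lowest.

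The remaining peptidases were Ctsb, Ctsl, Ctss and Tpp1. Ctsb, a cysteine cathepsin, showed a log2 fold change of -0.054 (SE 0.077) within 373 to 436 CPM, and the tripeptidyl peptidase gene Tpp1 one of 0.059 (SE 0.11) within 172 to 221 CPM. Ctsl, a cysteine cathepsin as well, was at 55.4 to 78.5 CPM (log2 fold change 0.19, SE 0.14). Ctss, known for its part in antigen presentation by phagocytes, was low at 9.98 to 16.3 CPM (log2 fold change 0.13, SE 0.26). Of 13 monocyte and macrophage markers, 6 had counts in every library (Csf1r, Mrc1, Ly6c2, C1qa, C1qb and C1qc), and Marco was at 0 in 6 of the 7 libraries. Of the 12 tested, 6 had higher and 6 lower fitted values, and Csf1r, at 27.2, 5.16 and 12.00 CPM in Hdc-GFPhi and 5.91, 6.82, 2.77 and 1.74 CPM in Hdc-GFPlo, had a log2 fold change of 1.78 (SE 0.60, edgeR adjusted p = 0.307). Ly6c2 ranged from 10.8 to 187 CPM. The summed level of these markers was 118 to 262 CPM in Hdc-GFPhi and 44.5 to 129 CPM in Hdc-GFPlo, highest in Hdc-GFPhi replicate 1.

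Genes of lysosomal lipid handling overlapped between the groups. Psap, the precursor of the saposins that help degrade sphingolipids, was at 552, 380.1 and 517 CPM in Hdc-GFPhi and 580.1, 572, 447 and 425 CPM in Hdc-GFPlo. Hdc-GFPhi replicate 2 was the lowest library and Hdc-GFPlo replicate 1 the highest (log2 fold change -0.067, SE 0.15). Lipa, the acid lipase, had 107, 67.3 and 91.3 CPM against 79.8, 73.2, 74.1 and 86.2 CPM, again with Hdc-GFPhi replicate 2 lowest (log2 fold change 0.18, SE 0.15). The Lipa value was 0.018 without Hdc-GFPhi replicate 1 and 0.34 without Hdc-GFPhi replicate 2, where it was under an unadjusted p of 0.05. Npc2, which hands cholesterol to the Npc1 protein, had 144, 111 and 119 CPM against 126, 114, 132 and 130.01 CPM (log2 fold change -0.013, SE 0.11), and Hdc-GFPhi replicate 2 was lowest there too.

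The transcription factor genes overlapped between the groups as well. Tfeb was at 19.1, 19.4 and 25.2 CPM in Hdc-GFPhi and 18.7, 26.9, 18.7 and 20.8 CPM in Hdc-GFPlo (a log2 fold change of -0.0030, SE 0.20). Tfe3 was at 40.8, 38.5 and 43.5 CPM against 36.5, 40.1, 37.00 and 31.9 CPM, with Hdc-GFPlo replicate 2 inside the Hdc-GFPhi range (log2 fold change 0.17, SE 0.13, edgeR adjusted p = 0.647). The activity of these factors depends on their location in the cell, which RNA counts do not measure.

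The element that TFEB and TFE3 bind was searched as CACGTG and as TCACGTGA, which contains it, in RefSeq promoter windows of the mouse build GRCm38.p6. Both motifs equal their reverse complement, and a window spans 250 bases before to 50 after a gene's start. Of 39 members found in that table, 11 held CACGTG (28.2%, against 11.8% of 9229 tested genes found there and 8.09% of all 27025 in the table). The longer TCACGTGA was held by 5 (12.8%, against 2.24% and 1.12%). The 30 bases around the first longer match of each of those 5 genes are shown 5′ to 3′, with the match in capitals.
Ctsa (chr2:164833749-164833778, plus strand): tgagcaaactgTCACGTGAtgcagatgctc
Ctsd (chr7:142387908-142387937, minus strand): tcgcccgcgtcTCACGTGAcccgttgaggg
Mcoln1 (chr8:3500462-3500491, plus strand): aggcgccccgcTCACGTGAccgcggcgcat
Atg3 (chr16:45158746-45158775, plus strand): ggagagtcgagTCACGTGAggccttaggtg
Gla (chrX:134601215-134601244, minus strand): taagcgattgaTCACGTGAgcatctacgtc
In Ctsa and Gla the longer motif occurred 2 times. Log2 fold changes of these 5 genes ran from -0.039 for Atg3 to 0.22 for Gla, with adjusted edgeR p-values of at least 0.49. As 0 of 12917 genes passed edgeR, the lack of a pass here says nothing about genes with the motif. Ids, Lamp2 and Neu1 were not among the 5 genes found with the longer motif, and 5 members were absent from that promoter table. Whether TFEB or TFE3 acts on any of these genes was not tested.

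At the initiation of autophagy, the genes of the related kinases Ulk1 and Ulk2 had opposite signs. Ulk2 was at 49.9, 90.1 and 64.5 CPM in Hdc-GFPhi and 114, 89.7, 102 and 81.1 CPM in Hdc-GFPlo. The groups overlapped through Hdc-GFPhi replicate 2, and the log2 fold change was -0.51 (SE 0.20, edgeR adjusted p = 0.355, unadjusted p = 0.0301). Without Hdc-GFPhi replicate 1 the Ulk2 value was -0.32 and no longer under an unadjusted p of 0.05, and without Hdc-GFPhi replicate 2 it was -0.76. Ulk1 was at 89.4, 100.2 and 114 CPM against 89.3, 69.2, 93.5 and 84.3 CPM, with Hdc-GFPhi replicate 1 inside the Hdc-GFPlo range (log2 fold change 0.27, SE 0.13, edgeR adjusted p = 0.445). Neither passed over all genes, and the contrast between them was not tested.

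Wipi2 and Becn1 had small differences with separate groups. Wipi2 encodes a phosphoinositide-binding protein that brings the conjugation machinery to the growing membrane, and it was at 176, 162 and 189 CPM in Hdc-GFPhi and 154, 142, 154 and 157 CPM in Hdc-GFPlo. Its log2 fold change was 0.21 (SE 0.086, edgeR adjusted p = 0.371, unadjusted p = 0.0338). Becn1, a subunit of the lipid kinase complex that makes the phosphoinositide, was at 146, 152 and 152 CPM against 145, 139, 138 and 131 CPM. The lowest Hdc-GFPhi library was within 1 CPM of the highest Hdc-GFPlo library, and the log2 fold change was 0.12 (SE 0.080, edgeR adjusted p = 0.573). The lipid transfer gene Atg2a, at 64.8 to 104 CPM, and Wipi1, at 7.59 to 15.7 CPM, had log2 fold changes of -0.033 (SE 0.16) and 0.12 (SE 0.29).

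In the conjugation step Atg12, a ubiquitin-like protein that Atg7 and Atg10 join to Atg5, had lower values in Hdc-GFPhi. It was at 82.3, 94.1 and 97.6 CPM in Hdc-GFPhi and 98.9, 123, 106 and 109.7 CPM in Hdc-GFPlo, and the groups met without overlap at Hdc-GFPhi replicate 3 and Hdc-GFPlo replicate 1. The log2 fold change was -0.26 (SE 0.11, edgeR adjusted p = 0.381, unadjusted p = 0.0375). The genes of its partners overlapped between the groups. Atg7, the activating enzyme, was at 94.2, 80.3 and 77.3 CPM against 91.5, 89.1, 89.1 and 86.97 CPM (log2 fold change -0.087, SE 0.10), and Atg10, the conjugating enzyme, at 21.6, 19.6 and 27.1 CPM against 24.4, 17.7, 23.9 and 16.7 CPM (0.14, SE 0.21). Atg5 had a log2 fold change of 0.020 (SE 0.10) within 86.6 to 107 CPM.

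Genes of the branch that attaches Atg8 proteins to lipid had overlapping groups. Atg3, its conjugating enzyme, had the most reads of this role, at 114, 111 and 138 CPM in Hdc-GFPhi and 115, 131, 133 and 118 CPM in Hdc-GFPlo (a log2 fold change of -0.039, SE 0.11). The Atg8 protease gene Atg4b ranged from 92.1 to 129 CPM (log2 fold change 0.045, SE 0.12).

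Of the Atg8 family, which marks the autophagosome and binds cargo receptors, Map1lc3b was at 375, 304 and 333 CPM in Hdc-GFPhi and 283, 318, 324 and 350.4 CPM in Hdc-GFPlo. Its log2 fold change was 0.080 (SE 0.10). Map1lc3a, its close relative, was far less counted, at 16.5, 15.3 and 12.9 CPM against 17.6, 39.7, 12.7 and 18.1 CPM. Its log2 fold change of -0.56 (SE 0.36, edgeR adjusted p = 0.558) rested on Hdc-GFPlo replicate 2, and without that library it was -0.12. Gabarapl1 was at 286, 202 and 259 CPM against 222, 209.9, 245 and 258 CPM (log2 fold change 0.091, SE 0.13). Gabarap ranged from 208 to 244 CPM and Gabarapl2 from 22.1 to 28.6 CPM, at -0.034 (SE 0.086) and 0.10 (SE 0.15) on the log2 scale. Sqstm1, the gene of the cargo receptor p62, was at 348, 320.2 and 385 CPM in Hdc-GFPhi and 339, 315, 360.4 and 398 CPM in Hdc-GFPlo (a log2 fold change of -0.0081, SE 0.10).

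**Figure D3:**
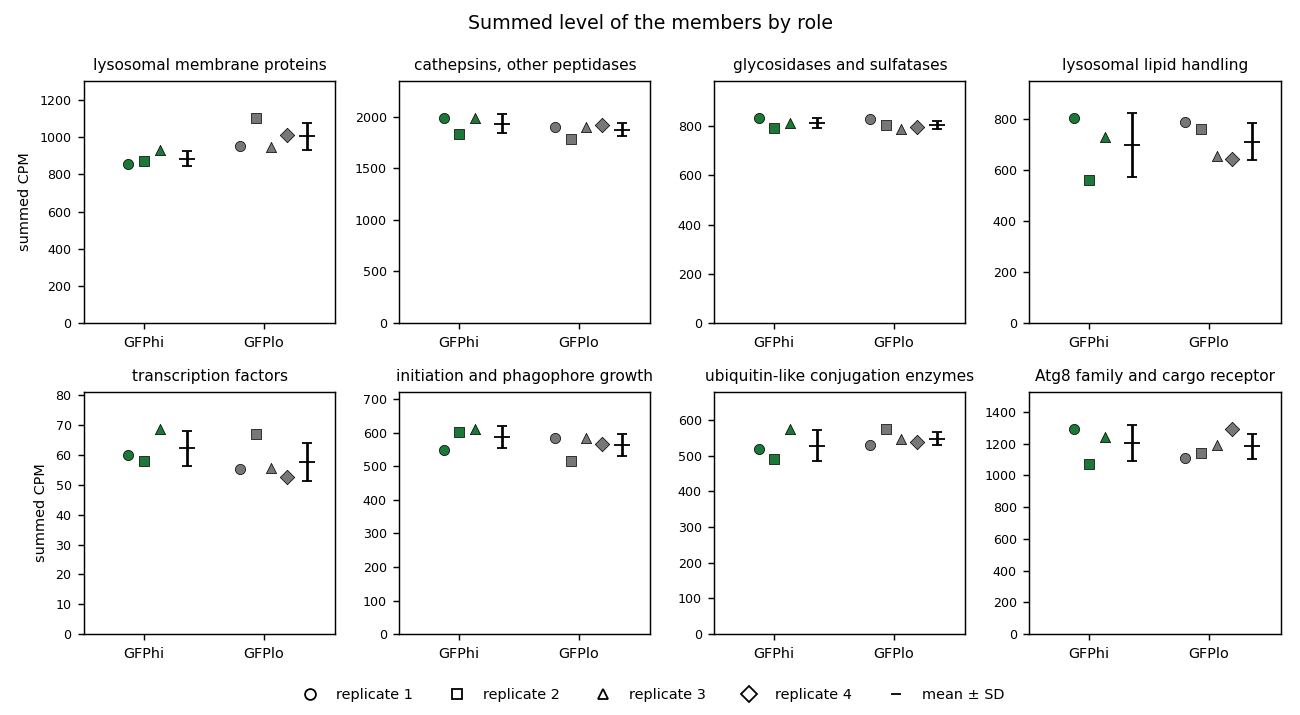
Summed TMM-normalized CPM of the members of each role (y axis, from 0) in each Hdc-GFPhi (green) and Hdc-GFPlo (grey) library, with mean ± SD. Membrane proteins are the only one of the 8 roles whose groups do not overlap, with Hdc-GFPhi at 854 to 929 and Hdc-GFPlo at 948 to 1103 summed CPM. Of the 5 membrane genes, only Lamp2 has separate groups by itself.

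The spread of the members between libraries was also set beside that of other genes. Their median SD over the 7 libraries was 0.17 on the log2 scale, against 0.21 for the 9617 tested genes within the members' range of mean levels (8.94 to 706 CPM) and 0.24 for all tested genes. The absolute log2 fold change was under 0.25 for 36 of the 44 members (81.8%), against 68.3% of genes within that range. The median of the mean levels was 105 CPM for the members and 58.3 CPM for the genes within that range. The range therefore does not match levels, and the part of level in these differences was not tested. These shares are descriptions, with no test. Hdc-GFPhi replicate 1 held the highest value of 16 members and the lowest of 8, and Hdc-GFPhi replicate 2 the highest of 2 and the lowest of 8. In Hdc-GFPlo, replicate 2 stood at both ends most often, with the highest value of 7 members and the lowest of 9.

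The wider pathway was read from 130 further lysosome and autophagy genes, of which 127 were tested. Again 0 passed edgeR over all genes. Hdc-GFPhi libraries lay entirely above the Hdc-GFPlo libraries for 9 of the 127 (7.09%, against 6.02% of all genes). They lay entirely below for 8 (6.3%, against 5.87%), so separate groups were about as frequent as over all genes. At an unadjusted p under 0.05, 7 of the 127 were higher (5.51%, against the 4.92% of all genes) and 9 lower (7.09%, against the 7.31%). The median log2 fold change of the 127 genes was 0.018. DESeq2 called 3 of the 127, Atp6v0b higher (0.787%, against the 0.686% of all genes) and Atp6ap2 and Arsb lower (1.57%, against the 2.57%). These counts were near or below the background. Subunits and accessory proteins of the vacuolar proton pump, which acidifies the lysosome, had values in both directions: 11 of 16 tested had higher fitted values and 5 lower.

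Atp6v0b, a subunit of the membrane ring of that pump, was at 174, 142 and 136 CPM in Hdc-GFPhi and 121, 99.1, 104 and 108 CPM in Hdc-GFPlo (a log2 fold change of 0.48, SE 0.11, DESeq2 adjusted p = 0.0112). Atp6ap2, an accessory protein of the pump also known as the prorenin receptor, was at 155, 162 and 149 CPM against 187, 210.3, 196 and 189 CPM (log2 fold change -0.34, SE 0.082, DESeq2 adjusted p = 0.00639). For both genes the libraries of the fractions were separate. Neither passed edgeR over all genes (adjusted p = 0.226 and 0.231). Both DESeq2 calls were lost without Hdc-GFPhi replicate 1 (adjusted p = 0.130 for Atp6v0b and 0.0644 for Atp6ap2), without Hdc-GFPlo replicate 2 (0.0784 and 0.0697) and without Hdc-GFPlo replicate 3 (0.0865 and 0.0763).

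Of 34 tested further hydrolases and cofactors, 24 had higher and 10 lower fitted values. At an unadjusted p under 0.05, 0 were higher (0%, against the 4.92% of all genes) and 3 lower (8.82%, against the 7.31%). Arsb, the sulfatase that acts on dermatan sulfate as Ids does, was at 42.7, 40.2 and 40.6 CPM in Hdc-GFPhi and 65.7, 61.03, 58.96 and 50.5 CPM in Hdc-GFPlo. Every Hdc-GFPhi library lay below the Hdc-GFPlo libraries (log2 fold change -0.52, SE 0.13, edgeR adjusted p = 0.235, DESeq2 adjusted p = 0.0107). The DESeq2 call of Arsb was lost without Hdc-GFPhi replicate 1 or 2 (adjusted p = 0.0751 and 0.0729) and without Hdc-GFPlo replicate 1, 2 or 3 (adjusted p = 0.0850, 0.0884 and 0.0880). Ggh, which trims glutamates from folates, stood at -0.34 on the log2 scale (SE 0.15) and the carboxypeptidase gene Scpep1 at -0.38 (SE 0.17), both with separate groups.

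Membrane and sorting proteins of the lysosome had 6 higher and 12 lower fitted values among 18. Their summed levels overlapped, at 2400.5 to 2777 CPM in Hdc-GFPhi and 2616 to 2711 CPM in Hdc-GFPlo. Cln3, the membrane protein lost in juvenile Batten disease, was at 62.6, 55.2 and 52.7 CPM in Hdc-GFPhi and 48.6, 36.5, 40.4 and 33.7 CPM in Hdc-GFPlo (a log2 fold change of 0.52, SE 0.15). Gnptab, the transferase that starts the mannose 6-phosphate tag of lysosomal enzymes, was at 81.1, 110.4 and 118 CPM against 136, 144, 133 and 130.3 CPM (log2 fold change -0.40, SE 0.13). Laptm4b, a membrane protein of late endosomes, stood at -0.43 on the log2 scale (SE 0.16). Each of the 3 had separate groups, and none passed edgeR over all genes.

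Further autophagy genes were 14 higher and 16 lower among 30, with Atg16l2 as the one that met the naming rule. This relative of Atg16l1, the scaffold of the conjugate of Atg12, was at 32.3, 44.3 and 33.7 CPM in Hdc-GFPhi and 30.04, 19.6, 19.2 and 17.01 CPM in Hdc-GFPlo (a log2 fold change of 0.78, SE 0.22, edgeR adjusted p = 0.267). Among 13 genes of vesicle fusion, Tecpr1, which links autophagosomes to lysosomes, stood at 0.61 on the log2 scale (SE 0.19) and Vps16, a subunit of the tethering complexes, at 0.26 (SE 0.11). Of 16 genes of control by mTORC1 and the TFEB family, Flcn, folliculin, acts on the Rag GTPases that hold TFEB and TFE3 at the lysosome. It was at 186, 181 and 207 CPM in Hdc-GFPhi and 164, 158, 149 and 164 CPM in Hdc-GFPlo, with separate groups (log2 fold change 0.27, SE 0.085, edgeR adjusted p = 0.3).

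**Figure D4:**
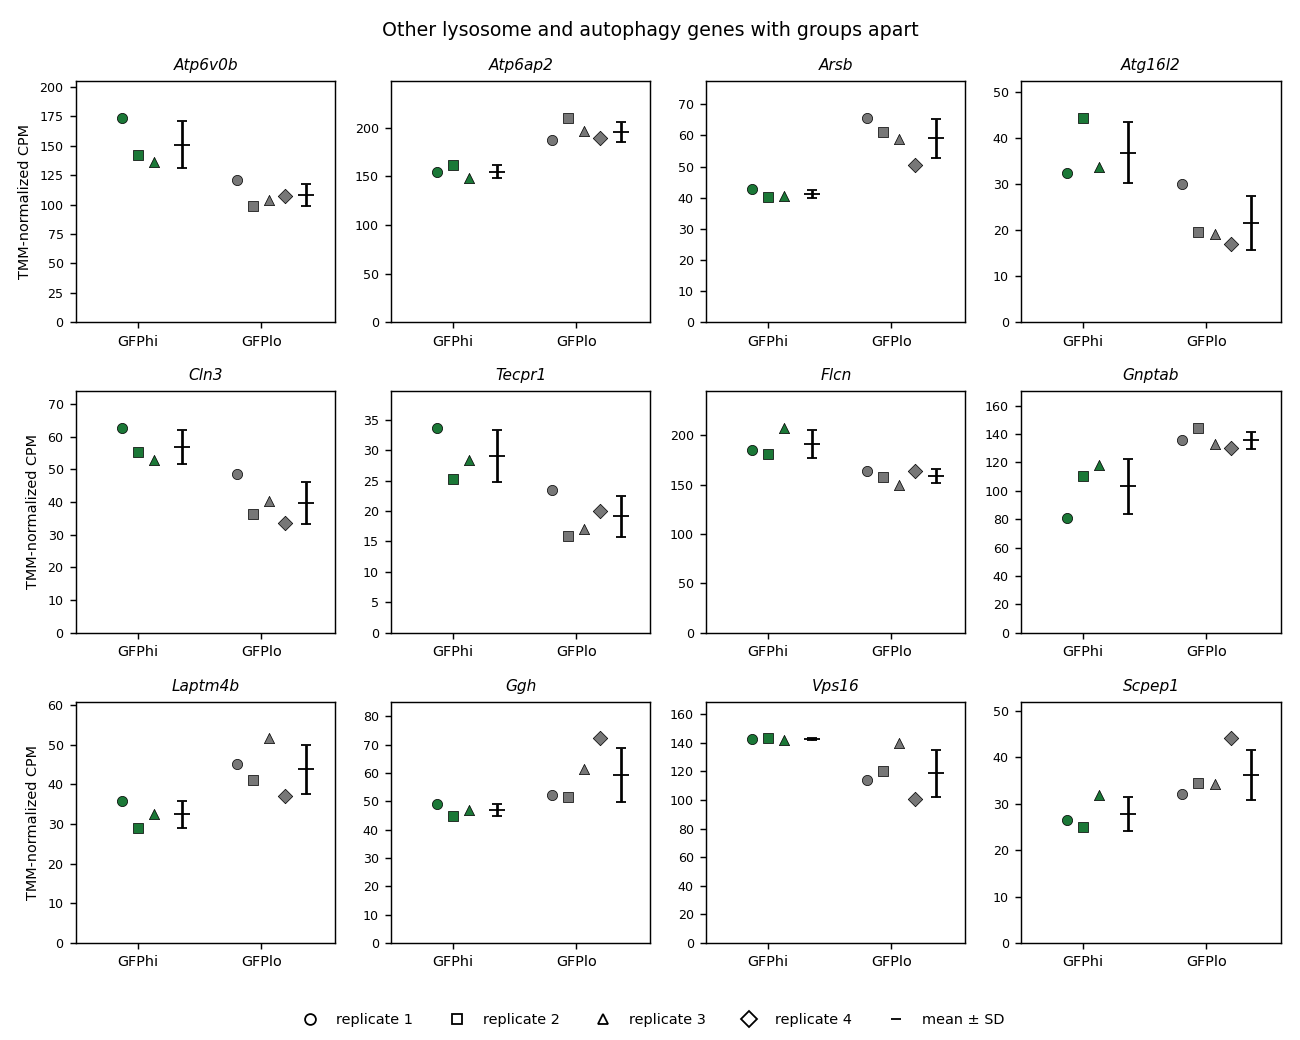
TMM-normalized CPM (y axis, from 0) in each Hdc-GFPhi (green) and Hdc-GFPlo (grey) library for the 12 further lysosome and autophagy genes with separate groups, an unadjusted p under 0.05 and a mean of at least 5 CPM, with mean ± SD. Separation was a condition of their choice, and the panels show its size, from 0.26 (Vps16) to 0.78 (Atg16l2) among higher and from -0.34 (Atp6ap2) to -0.52 (Arsb) among lower genes on the log2 scale.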

How the data were processed

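What the authors deposited is a table of raw counts, unscaled, with a row for each gene symbol and 1 column per library. Per the submitters' processing notes, bcl2fastq 1.8.4, Bowtie2, TopHat2 2.0.4 (also written 2.04) and HTSeq 0.6.1 were used with the mouse build mm9. No source used here gives the annotation, strand setting or filters. Per the labels' protocols, cDNA was amplified from 500 cells and molecular identifiers are not mentioned, so amplified reads are not independent molecules, and detection floors (3 counts) cover counting error only. Reads of overlapping genes or near-identical copies cannot be separated.

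Columns were matched by the library code in each description. In R 4.3.3, edgeR 4.0.16 kept 12917 of 23284 genes (filterByExpr, minimum count 10), scaled by TMM and fitted group as the only term over all of them, with robust quasi-likelihood F tests and Benjamini-Hochberg adjustment. SEs are the fold change over the square root of F. Log2 spreads used CPM with a pseudocount of 2. The step was tested on simulated data. Libraries differed by more than counting noise (chi-square per degree of freedom 25.2 to 143), and each was kept as a replicate. Alternatives were other scalings and filters, DESeq2 1.42.0, limma 3.58.1 voom with quality weights, no robust setting, a replicate block and leaving out libraries. DESeq2 without each library was added after the data were seen.

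Members and lists were chosen with earlier results of these data known. Named in every library were members with separate groups, the 3 smallest p and the most counted gene of each role. Further genes needed separate groups, an unadjusted p under 0.05 and a mean of at least 5 CPM. Of the list genes, 7 were matched by an older symbol in RefSeq. Promoters came from RefSeq on GRCm38.p6, with no coordinate converted.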

Additional observations from a re-analysis of the deposited data

Results flagged for a closer look

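Of 80 groups of 4 Hdc-GFPlo values, 4 held a library whose gap to its nearest neighbour exceeded Dixon's critical share of the group's range. Chance alone gives about 1 in 20, which is as many as were found, and some groups share genes. Ctsd, cathepsin D, was lower in Hdc-GFPlo replicate 2, at 649 CPM, than in the other Hdc-GFPlo libraries, of which the nearest was at 712 CPM. The summed level of cathepsins and other lysosomal peptidases, which includes Ctsd, was 1780.1 CPM in that library against 1899 CPM in the nearest. Summed over the further lysosomal hydrolases and cofactors, Hdc-GFPlo replicate 4 stood highest at 2893 CPM, with the next at 2745 CPM. Megakaryocyte and platelet markers summed to 865 CPM in Hdc-GFPlo replicate 4 against 572 CPM in the next library. That library is also the one with a sorted fraction labelled GFP negative, and a link between label and level was not tested.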

How the results depend on the processing

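No member and no gene passed the adjusted threshold in edgeR under any scaling, filter, the replicate block or with libraries left out, nor in limma voom, while DESeq2 called 356 genes and 2 members. Members higher at an unadjusted p under 0.05 numbered 2 (4.55%, against 4.92% of all tested genes). Under upper quartile scaling they numbered 4 (9.09%, against 6.16%) and in limma voom 1 (2.27%, against 5.75%). Without both replicate 1 of Hdc-GFPhi and replicate 4 of Hdc-GFPlo there were 0 (0%, against 3.09%). With 1 library left out there were 1 to 4, while the all-gene shares ran from 2.75% to 5.6%. Members lower numbered 4 (9.09%, against 7.31%). When 1 library was left out they numbered 2 to 6, while the all-gene shares ran from 4.75% to 8.51%. Members called by DESeq2 ranged from 1 to 3 with 1 library left out, while its calls over all genes ranged from 109 to 688. Without both named libraries DESeq2 called 1 member and 267 genes in all. Over settings with 1 library left out the median log2 fold change of members ran from -0.011 to 0.079. Same-numbered libraries of the groups did not deviate together (correlations -0.063, -0.0057 and -0.14). With the replicate block, which leaves out Hdc-GFPlo replicate 4, 3 members were higher at an unadjusted p under 0.05 (6.82%, against 4.55% of all genes). Lower in that fit were 3 (6.82%, against 7.86%). The cause of these shifts was not tested. The number of libraries, the 500 cells in each and read depth all limit what small differences can be seen, and these limits were not compared.

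Of 748 refits of single members, 675 kept direction and side of the threshold, 2 newly passed it (Ids and Lamp2 in DESeq2) and 71 changed sign, all in genes with no call, and 23 members never changed sign. For those that did, the log2 fold change is given. With a filter of 5 CPM in 3 libraries it was 0.0068 (Gusb) and 0.0034 (Tfeb). Without both Hdc-GFPhi replicate 1 and Hdc-GFPlo replicate 4 it was -0.023 (Mcoln1), -0.088 (Ctss), -0.42 (Gla), 0.064 (Gusb), -0.057 (Idua), 0.049 (Tfeb), 0.18 (Atg2a), -0.29 (Wipi1) and 0.052 (Sqstm1). With library totals it was 0.035 (Gusb), 0.00037 (Naglu), 0.023 (Npc2), 0.035 (Tfeb), 0.0030 (Gabarap) and 0.026 (Sqstm1). With limma voom it was -0.11 (Gla), 0.031 (Gusb), -0.0068 (Idua), 0.038 (Tfeb), 0.032 (Atg2a), -0.00093 (Wipi1) and -0.012 (Atg4b). With the replicate block it was -0.17 (Gla), 0.024 (Gusb), -0.0084 (Idua), 0.11 (Atg2a), -0.0021 (Wipi1) and 0.053 (Sqstm1). With upper quartile scaling it was 0.028 (Gusb), 0.018 (Npc2), 0.026 (Tfeb) and 0.021 (Sqstm1). Leaving out 1 library each, it ranged from -0.079 to 0.40 (Mcoln1), -0.0067 to 0.13 (Tpp1), -0.13 to 0.54 (Gla), -0.039 to 0.050 (Gusb), -0.15 to 0.13 (Tfeb), -0.13 to 0.11 (Atg2a) and -0.21 to 0.33 (Wipi1). Further ranges were -0.15 to 0.018 (Atg3), -0.0019 to 0.15 (Map1lc3b), -0.020 to 0.22 (Gabarapl1), -0.14 to 0.051 (Naglu), -0.13 to 0.062 (Npc2), -0.17 to 0.079 (Psap) and -0.090 to 0.020 (Gabarap). The last ranges were -0.087 to 0.055 (Sqstm1), -0.0097 to 0.078 (Ctsd), -0.082 to 0.16 (Atg4b), -0.056 to 0.059 (Atg5), -0.013 to 0.24 (Atg10) and -0.0051 to 0.12 (Idua).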

Other observations

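Lamp2 and Ids, the members that DESeq2 called lower, are both on the X chromosome in RefSeq on GRCm38.p6. The other X-linked members, Gla and Tfe3, had log2 fold changes of 0.22 (SE 0.48) and 0.17 (SE 0.13). Over the 353 tested genes placed on X the median log2 fold change was -0.084, and 60.6% had lower fitted values in Hdc-GFPhi. Over 8876 tested genes on other chromosomes the median was 0.011 and 48.4% were lower. Ids and Lamp2 are themselves among the 353, and tested genes not found among the RefSeq promoters are in neither group. At an unadjusted edgeR p under 0.05, 11.3% of X-linked genes were lower and 2.83% higher, against 7.30% and 5.07% elsewhere. These are descriptions of the same 7 libraries, with no test, and they were looked at after the values of Ids and Lamp2 were seen.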
